A study of Mus musculus with 4 samples.

Results

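Mouse ES cells treated with an inhibitor of GSK were set directly against the same cells treated with an inhibitor of FGFR, to find which named genes separate these treatments. The comparison takes the array labelled GSK against the array labelled FGFR and leaves the control array out of every difference. Genes were included if they had a probe in the deposited value table, which holds 1 probe per gene, and if the Cy3 signal of that probe was well above background on both arrays by the flag of the scanning software. There were 16518 such genes of 25030, after 2 more had been left out because their spot was marked as not uniform. Symbols came from gene tables published with the study, which are held here in part and name 5619 of the 25030 genes. Of the 16518 genes, 4294 have a symbol, and only these could be named.

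The cells were B6R(5) ES cells of the C57BL/6 strain, grown without feeders on gelatin. Exposure to the inhibitors lasted 48 hr and began when the cultures were 24 hr old. Every culture, the control included, held 0.2% DMSO (v/v) as solvent. The FGFR inhibitor was PD173074 at 100 μM and the GSK inhibitor was BIO at 2 μM, and another list of the study prints these doses in mM. A culture with DMSO alone and a culture with the MEK inhibitor PD98059 at 25 μM are given below as values beside the comparison. RNA of the cells carried Cy3, and RNA pooled from mouse cell lines carried Cy5 on all 4 arrays as a common reference, without dye exchange. Each condition had 1 culture on 1 array, so the differences cannot be set against a spread between replicates, and p-values are left out. The compounds were used at different doses, so that a difference belongs to these 2 cultures as treated.

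FGF receptors signal through Ras, MEK and ERK, and in mouse ES cells this route prepares the cells for differentiation. GSK3 keeps β-catenin low by marking it for destruction, and when the kinase is blocked β-catenin accumulates and acts on Wnt target genes with TCF factors. Inhibitors of both routes are known to help ES cells stay undifferentiated, while GSK inhibition also favours genes of the primitive streak.

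Among named genes, the differences in the ratio of Cy3 to Cy5 were largest for transcripts that stood out on a single inhibitor array. Choosing genes by the gap between single arrays favours this. Cfc1, a coreceptor for Nodal, was 4.48-fold higher with FGFR inhibitor. Khdc3, of the maternal complex of early embryos, was 3.51-fold higher with FGFR than with GSK inhibitor. Its Cy3 signal was 5782 after FGFR inhibition, near the 5334 of the DMSO control, and 1116 after GSK inhibition. In the processed signals the difference of Khdc3 was under 2 of its errors. The noncoding RNA 1700097N02Rik was 4.97-fold higher with GSK inhibitor, Ct55 was 4.63-fold higher and the phosphatase gene Lhpp was 4.54-fold higher. Each value comes from 1 array per treatment, with a robust SD of 0.25 to 0.27 in log2 units among genes of like brightness.

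Both arrays were of similar brightness. Over all spots, the median of the mean Cy3 signal was 79.0 on the FGFR inhibitor array and 78.4 on the GSK inhibitor array, against a median local background of 39.0 and 39.5. Cy3 was well above background for 17407 genes with FGFR inhibitor and for 16923 with GSK inhibitor. No spot was saturated on any of the 4 arrays.

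Values were compared as the log2 ratio of Cy3 to Cy5 after background correction and loess within each array, and each difference is the ratio on the GSK inhibitor array minus that on the FGFR inhibitor array. At 2-fold or more, 221 of the 16518 genes differed, or 1.34%. Of these, 104 genes (0.630%) were higher with GSK inhibitor and 117 (0.708%) were higher with FGFR inhibitor. Among the 4294 named genes, 29 differed by as much, or 0.675%, which is a smaller share than over all genes. They comprise 14 that were higher with GSK inhibitor and 15 that were higher with FGFR inhibitor, and the other 192 genes carry no symbol here. The median difference was 0.018 over all genes and 0.031 over named genes, with a robust SD, taken from the median absolute deviation, of 0.23 and 0.20.

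The reference RNA in the Cy5 channel was the same on both arrays, so its count past 2-fold comes from measurement of that channel. Genes were filtered on Cy3 only, and an offset of 50 draws dim Cy5 signals toward equal values. The count is thus no full background for differences of ratios, which hold both channels. The reference holds no variation between cultures. It differed at least 2-fold for 10 of the 16518 genes, or 0.0605%, on the same corrected scale. When each channel was instead taken alone from the processed signals of the software, with quantile normalization, 199 genes passed 2-fold in Cy5 and 787 in Cy3. The reference channel was thus less quiet on that scale. Of the 221 genes, 25 (11.3%) also moved at least 2-fold in Cy5 alone in the direction of Cy3, against 1.20% for either direction over all genes, and none moved in the opposite direction. What part the reference has in these differences was not tested. In Cy3 alone all 221 genes kept their direction, and 216 of them also passed 2-fold. In the processed signals of both channels 218 kept their direction, and 193 also passed 2-fold.

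**Figure D1:**
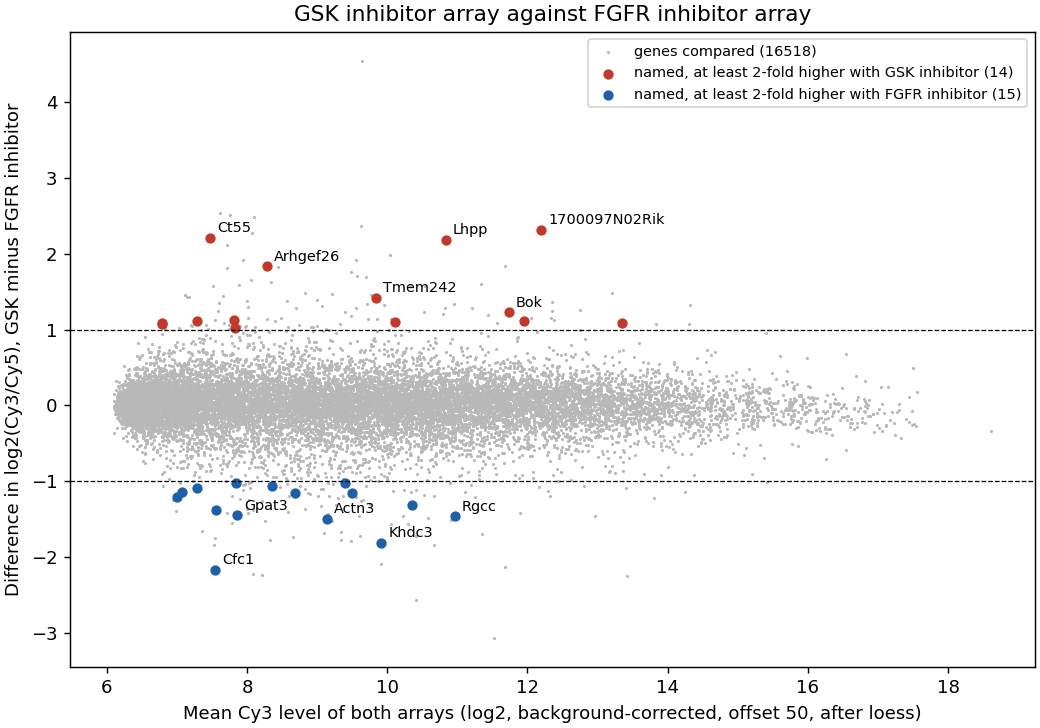
Difference in the log2 ratio of Cy3 to Cy5 between the arrays with GSK and FGFR inhibitor (vertical) against the mean log2 Cy3 level of both (horizontal), 1 point per gene for 16518 genes, with the 14 and 15 named genes past 2-fold in red and blue and dashed lines at 2-fold. The largest named differences reach 2.31 for 1700097N02Rik and -2.16 for Cfc1, and points without a symbol lie beyond them on both sides.

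The levels on the control and MEK inhibitor arrays show which inhibitor array stood apart for each gene. Genes chosen for a large gap between single arrays will often be extreme on either of them. Standing apart is thus partly set by that choice and only describes the values. The GSK inhibitor array was counted as standing apart where the log2 ratios of the control and MEK inhibitor arrays both lay nearer to that of the FGFR inhibitor array, and likewise for the FGFR inhibitor array. Among the 104 genes higher with GSK inhibitor, the GSK inhibitor array stood apart for 71 and the FGFR inhibitor array for 22. Among the 117 genes higher with FGFR inhibitor, these numbers were 41 and 55. Over all 16518 genes, whatever the size of the difference, the GSK inhibitor array stood apart for 40.1% and the FGFR inhibitor array for 29.4%. Among the 29 named genes, these numbers were 12 and 1 for those higher with GSK inhibitor and 5 and 8 for those higher with FGFR inhibitor, and 3 genes fell in neither class.

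Genes that stood out on the FGFR inhibitor array come from several classes of proteins. Cfc1, a coreceptor of the EGF-CFC family for the ligand Nodal, had a processed Cy3 signal of 73.6 in the DMSO control, 942 after FGFR inhibition, 94.1 after MEK inhibition and 68.0 after GSK inhibition. The signal was high on the FGFR inhibitor array and much lower on the other 3. The log2 difference was -2.16, or 4.48-fold higher with FGFR inhibitor, the largest in this direction among named genes in the ratio after loess. For genes about as bright in Cy3 as Cfc1, the robust SD was 0.25. Its Cy5 signal was dim, at 26.3 with FGFR inhibitor and 9.22 with GSK inhibitor, and was not well above background on the latter array. The log2 difference of Cfc1 was -3.81 in Cy3 alone and -1.67 with median centring in place of loess. In the processed signals it was -2.28, with an error of 0.73 from the error model of the software.

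Rgcc (listed as 1190002H23Rik), a regulator of the cell cycle, had Cy3 signals of 2793 in the DMSO control, 9514 after FGFR inhibition, 4033 after MEK inhibition and 2997 after GSK inhibition. Gpat3 (listed as Agpat9), an acyltransferase that starts glycerolipid synthesis, had 140 in the DMSO control, 883 after FGFR inhibition, 179 after MEK inhibition and 184 after GSK inhibition. Both genes were higher on the FGFR inhibitor array than on the remaining 3. Their log2 differences were -1.46 and -1.45, and that of Gpat3 was -2.23 in the processed signals. The robust SD at their levels was 0.26 and 0.29. Their Cy5 signals stayed within 5003 to 5828 and 716 to 821 over the 4 arrays, so the reference hardly moved at these spots.

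A long noncoding RNA was among this group. Tunar (listed as 2810011L19Rik), known for a role in pluripotency and neural differentiation of ES cells, had Cy3 signals of 192 in the DMSO control, 632 after FGFR inhibition, 331 after MEK inhibition and 204 after GSK inhibition. The GSK inhibitor array was near the control and the FGFR inhibitor array far above it, with a log2 difference of -1.37. Dner, a transmembrane protein with EGF repeats like those of Delta and Notch, had signals of 75.0, 459, 139 and 123 on the control, FGFR, MEK and GSK inhibitor arrays. Slco4c1, a transporter of organic anions, had signals of 108, 377, 131 and 112 in the same order. Their log2 differences were -1.09 and -1.15, and both were highest with FGFR inhibitor. In the processed signals they were -1.75 and -1.91, while with median centring in place of loess both were under 2-fold, at -0.89 and -0.88. Cy5 was not well above background on either array for Tunar and Slco4c1. Spats2l (listed as 2810022L02Rik) and 1700001P01Rik completed the 8 genes, with log2 differences of -1.03 each. Without background subtraction 1700001P01Rik was just under 2-fold, at -0.998. Its log2 ratios were -0.59, -0.018, -0.68 and -1.04 on the control, FGFR, MEK and GSK inhibitor arrays. The control thus lay close to midway between the arrays compared.

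For 5 genes higher with FGFR inhibitor, it was the GSK inhibitor array that stood apart. Khdc3 (listed as 2410004A20Rik), a KH-domain protein of the maternal complex of oocytes and early embryos that ES cells also express, had Cy3 signals of 5334 in the DMSO control, 5782 after FGFR inhibition, 7073 after MEK inhibition and 1116 after GSK inhibition. Actn3, the α-actinin of fast muscle fibres, had 3361 in the DMSO control, 2607 after FGFR inhibition, 3626 after MEK inhibition and 704 after GSK inhibition. Both genes were low on the GSK inhibitor array and at similar signals on the other 3. Their log2 differences were -1.81 and -1.49, or 3.51-fold and 2.81-fold, where the robust SD was 0.27 for each. The Cy5 signal of Khdc3 was also lower, at 69.6 with GSK inhibitor against 137 with FGFR inhibitor, and its log2 difference was -2.34 in Cy3 alone and -1.40 in the processed signals. The latter is under 2 of its errors of 0.70.

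Abcg1, an ABC transporter that exports cholesterol, had Cy3 signals of 2209 in the DMSO control, 2727 after FGFR inhibition, 3073 after MEK inhibition and 1215 after GSK inhibition. It was lowest on the GSK inhibitor array, and its log2 difference was -1.15. Fam110b (listed as 1700012H17Rik) and 2200002D01Rik had log2 differences of -1.15 and -1.31. For 2200002D01Rik the control and MEK inhibitor arrays lay close to midway between the others. The genes in neither class were Izumo2 (listed as 1700023D19Rik), a relative of the sperm protein Izumo1, at -1.20 and with median centring -0.92, and 4930558C23Rik, at -1.07. For 4930558C23Rik median centring gave -0.91 and the processed signals gave only -0.21, with Cy5 not well above background on either array.

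In the other direction, 12 of 14 genes stood out on the GSK inhibitor array. In the ratio after loess, the largest named difference was that of 1700097N02Rik, a long noncoding RNA by its RefSeq entry. Its Cy3 signals were 7278 in the DMSO control, 5777 after FGFR inhibition, 5225 after MEK inhibition and 28094 after GSK inhibition. Its log2 difference was 2.31, or 4.97-fold. In the processed signals it was 2.27, below that of Ct55. Ct55 (listed as 4930502E18Rik), a cancer/testis antigen gene of the X chromosome, had signals of 61.7, 64.0 and 65.9 on the control, FGFR and MEK inhibitor arrays and 871 with GSK inhibitor. It was thus near the lowest measurable signals on all arrays but that with GSK inhibitor, and its log2 difference was 2.21. With the offset of 50 the difference of such a dim gene is drawn toward 0, and in the processed signals it was 3.72, with an error of 0.48.

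Lhpp (listed as 2310007H09Rik), a phosphatase of phosphohistidine, had Cy3 signals of 2598 in the DMSO control, 2144 after FGFR inhibition, 2526 after MEK inhibition and 10932 after GSK inhibition. Arhgef26 (listed as 4631416L12Rik) had 294 in the DMSO control, 300 after FGFR inhibition, 550 after MEK inhibition and 1596 after GSK inhibition. Both were highest with GSK inhibitor, and Arhgef26 was also above the control with MEK inhibitor. Their log2 differences were 2.18 and 1.84, or 4.54-fold and 3.57-fold, with a robust SD of 0.26 and 0.29 at their levels. Tmem242 (listed as 5730437N04Rik), a transmembrane protein, followed with a log2 difference of 1.42.

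Other genes were nearer to 2-fold. Nrp2, a receptor for semaphorins and for VEGF, had Cy3 signals of 8553 in the DMSO control, 7711 after FGFR inhibition, 8309 after MEK inhibition and 13767 after GSK inhibition. Phlda3, a p53 target that restrains Akt, had signals of 19880, 18379, 18630 and 39001 on the control, FGFR, MEK and GSK inhibitor arrays. The GSK inhibitor array was the highest for both, with log2 differences of 1.12 and 1.09. In Cy3 alone Nrp2 was under 2-fold, at 0.88. Bok, a member of the Bcl-2 family that promotes cell death, had signals of 10618, 6121, 9050 and 13456 in the same order. It was lowest with FGFR inhibitor and highest with GSK inhibitor, with the control and MEK inhibitor arrays between, and its log2 difference was 1.23.

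Dnah7a (listed as Dnahc7a), a heavy chain of axonemal dynein, and Slc18b1 (listed as 1110021L09Rik), a vesicular transporter of polyamines, had log2 differences of 1.12 and 1.02. Those of AA986860 and Smkr-ps (listed as 1700023L04Rik) were 1.13 and 1.07, and Dipk2a (listed as 1190002N15Rik) was 2.14-fold higher. All of them stood out on the GSK inhibitor array. With median centring Dnah7a and Smkr-ps were under 2-fold, at 0.93 and 0.82, whereas the processed signals gave 1.90 and 2.52.

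Besides Bok, which fell in neither class, the exception among the 14 genes was Rxrg, a retinoid X receptor. Its Cy3 signal was 1502 in the DMSO control, 49.3 after FGFR inhibition, 512 after MEK inhibition and 301 after GSK inhibition. All inhibitor arrays lay below the control, and the FGFR inhibitor array lay far below the others. The log2 difference of 1.09 therefore separates a low signal with GSK inhibitor from a still lower one with FGFR inhibitor. In the processed signals it was 2.01, with an error of 0.52, and with median centring in place of loess it was 0.77.

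**Figure D2:**
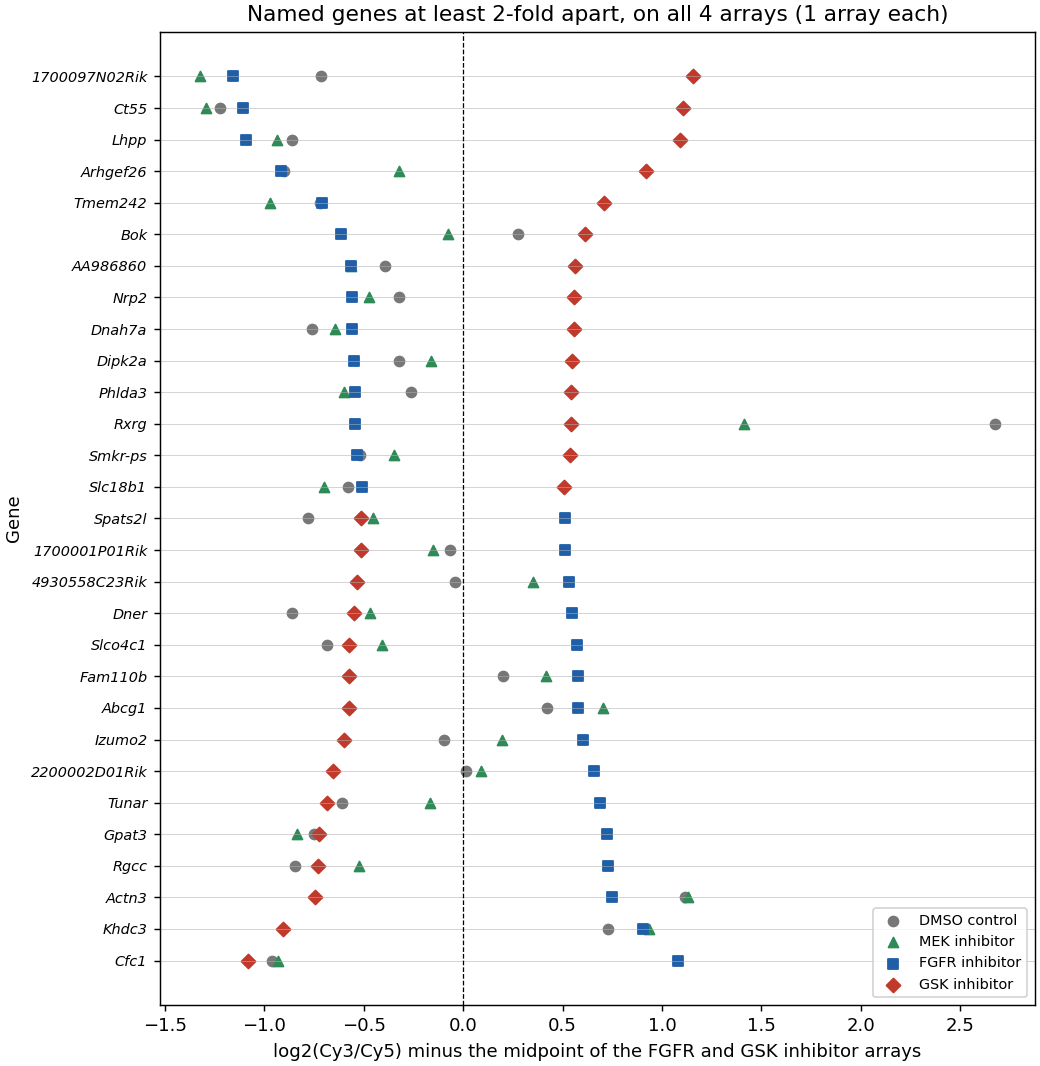
Log2 ratio of Cy3 to Cy5 of the 29 named genes on each of 4 arrays (1 array per condition), given relative to the midpoint of the FGFR and GSK inhibitor arrays of the same gene and ordered by the difference between them. For 12 of the upper 14 genes only the red diamond of the GSK inhibitor array lies to the right of the midpoint, while Rxrg has its control value far to the right of both inhibitors.

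All 29 named genes were well above background in Cy3 on all 4 arrays, and 24 of them were so in Cy5 on both arrays compared. Each difference was at least 3.50 times the robust SD of genes of similar level, which lay between 0.19 and 0.29. That spread holds true differences as well as error. Because the genes were taken at 2-fold or more, this multiple largely restates that cut. By the error model of the software, the difference in processed signals exceeded 2 errors for 25 of the 29 genes and fell short for Khdc3, Tunar, Izumo2 and 4930558C23Rik. Just under 2-fold lay 2300002M23Rik, at a log2 difference of -0.999, and Insyn1 (listed as 6030419C18Rik), at 0.997.

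A second measurement on the same arrays was available for some genes, since other probes of the array share sequence with theirs. Probes without a symbol of their own that shared at least 20 bases in a row, and were well above background on both arrays, were found for 151 named genes and made 166 pairs. Across these pairs, which are neither independent samples nor independent sequences, the correlation r of the differences was 0.965. The median gap between the differences of a pair was 0.047, and the largest was 0.36. Of the 29 genes, Lhpp, Bok and Slco4c1 had such a probe, and it gave log2 differences of 2.22, 1.21 and -1.21, close to those of the named probes. Of probes printed in several spots, 1 was well above background in all of its 5 spots on both arrays, and the SD of its difference over these spots was 0.47 in processed signals. The sequences of these 3 pairs, from 5′ to 3′, are given because each pair reads much the same stretch of transcript. Capitals mark only the longest unbroken run that a pair shares, and bases in lower case can match as well.

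Lhpp, named probe: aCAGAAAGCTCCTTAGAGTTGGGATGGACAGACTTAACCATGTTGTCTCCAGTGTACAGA
Lhpp, second probe: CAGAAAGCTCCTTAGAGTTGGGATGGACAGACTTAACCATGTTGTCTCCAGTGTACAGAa
Bok, named probe: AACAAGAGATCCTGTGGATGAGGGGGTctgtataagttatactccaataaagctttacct
Bok, second probe: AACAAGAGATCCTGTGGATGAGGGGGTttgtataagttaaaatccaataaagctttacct
Slco4c1, named probe: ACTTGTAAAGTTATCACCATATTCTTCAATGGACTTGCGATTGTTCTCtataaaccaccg
Slco4c1, second probe: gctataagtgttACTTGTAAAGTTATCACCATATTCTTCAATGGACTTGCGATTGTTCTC

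The probes of the 3 largest named differences in each direction that have no such partner are given next, because each value comes from a lone spot on an array and depends on the stretch of transcript that the probe reads. The whole probe of 60 bases was printed on the array, and no part is in capitals. The probes named here had a GC content of 36.7% for Khdc3 to 56.7% for 1700097N02Rik, and the median was 43.3% over the 104 and over the 117 genes past 2-fold, against 45.0% over all genes compared.

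Cfc1: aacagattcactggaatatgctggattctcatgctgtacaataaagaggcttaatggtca
Khdc3: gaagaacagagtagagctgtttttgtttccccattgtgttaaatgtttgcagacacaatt
Actn3: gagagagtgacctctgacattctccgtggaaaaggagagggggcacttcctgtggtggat
1700097N02Rik: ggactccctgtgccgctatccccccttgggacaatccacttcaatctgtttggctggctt
Ct55: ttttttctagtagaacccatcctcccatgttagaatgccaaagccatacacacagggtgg
Arhgef26: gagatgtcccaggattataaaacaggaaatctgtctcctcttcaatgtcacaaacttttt

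Which genes could be named depended on the tables held. Symbols of the RIKEN clone type made up 17 of the 29 genes, or 58.6%, and 40.0% of the 4294. By the RefSeq table for GRCm38.p6, 10 of the 29 lie on chromosome 1, or 34.5%, against 17.2% of the 4051 named genes with a chromosome there. Genes without a symbol had larger differences. The probe Z00024810-1 had Cy3 signals of 712 in the DMSO control, 121 after FGFR inhibition, 457 after MEK inhibition and 18570 after GSK inhibition, and a log2 difference of 4.54. The probe Z00005843-1 had 21803, 20541, 27669 and 2838 in the same order, and a log2 difference of -3.06. Both stood out on the GSK inhibitor array, in opposite directions, and they were chosen for their size after the values were seen. For Z00024810-1 the Cy5 signal also differed, at 32.2 with FGFR inhibitor and 362 with GSK inhibitor.

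The pathways that the inhibitors act on could be followed only in part, because few of their genes are named here. The genes compared in every list are named ones, of which 0.675% passed 2-fold. Of 41 genes listed for Wnt and β-catenin signaling, 13 were compared and 0 passed 2-fold, against 1.34% of all genes. Their median log2 difference was 0.020, from -0.32 for Apc, part of the complex that degrades β-catenin, to 0.42 for the casein kinase gene Csnk1g2. Of 47 genes of FGF, Ras and ERK signaling, 8 were compared and 0 passed, with a median of 0.13, and of 0.33 in Cy3 alone. In the processed signals Irs1, an adaptor of insulin receptors, passed 2-fold at 1.12, against 0.28 in the ratio after loess. The lowest of them was Lamtor3 (listed as Map2k1ip1), a scaffold of MEK, at -0.044. The highest was Elk4, an ETS factor that ERK activates with serum response factor, at 0.74, with Cy3 signals of 1044 in the DMSO control, 994 after FGFR inhibition, 1459 after MEK inhibition and 1551 after GSK inhibition. The direct target genes commonly read for either route, such as Axin2 and Dusp6, were not analysed here.

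Genes of Nodal, activin and BMP signaling were compared for 12 of 35, and Cfc1 was the 1 that passed, against 1.34% of all genes, with a median of -0.083. Inhbb, the β subunit of activin B, had Cy3 signals of 4464 in the DMSO control, 2354 after FGFR inhibition, 6675 after MEK inhibition and 1257 after GSK inhibition, and a log2 difference of -0.82. It was below the control with both inhibitors and lower with GSK inhibitor. The receptor genes Acvr2a, Acvr2b, Acvr1b, Acvr1, Acvrl1 and Bmpr2 lay between -0.25 and 0.22, and Foxh1, the Nodal effector in the nucleus, was at -0.021.

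Indirubins, the class to which BIO belongs, are known ligands of the aryl hydrocarbon receptor. Of 14 genes listed for that receptor, 5 were compared and 0 passed 2-fold, against 1.34% of all genes, with a median of -0.014. The receptor gene Ahr was at -0.33. Ahrr, the repressor induced by the receptor, had Cy3 signals of 73.5 in the DMSO control, 47.9 after FGFR inhibition, 65.7 after MEK inhibition and 179 after GSK inhibition. It was highest with GSK inhibitor, and its log2 difference was 0.63 with the offset and 1.92 in the processed signals. The retinoid list had 2 of 13 genes, Rxrg as above and Rdh10, a retinol dehydrogenase, at -0.014, with a median of 0.54. That median was 1.17 in Cy3 alone and 0.92 in the processed signals.

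Of 19 markers of pluripotent cells, 4 could be compared, and all 4 were well above background on every array, so these cannot fully check the label of the cells as ES cells. Prdm14, a repressor of differentiation genes, had Cy3 signals of 1530 in the DMSO control, 2816 after FGFR inhibition, 2060 after MEK inhibition and 1575 after GSK inhibition. It was highest with FGFR inhibitor, at a log2 difference of -0.76. Gbx2, a homeobox factor singled out after its values were seen, had signals of 8670, 1806, 6080 and 8704 on the control, FGFR, MEK and GSK inhibitor arrays, so that Cy3 was lowest with FGFR inhibitor. Its Cy5 signal was also low there, at 83.3 against 412 with GSK inhibitor. The log2 difference of Gbx2 was thus 0.76 in the ratio, 2.28 in Cy3 alone and -0.037 in the processed signals, so that its direction depends on the processing. Tfcp2l1 (listed as Tcfcp2l1) and Nr5a2 were at -0.01 and 0.15, and the median of the 4 was 0.069, whereas Cy3 alone gave 0.38 and the processed signals -0.051.

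Factors of differentiating lineages were compared for 13 of 42, and 0 passed 2-fold, with a median of -0.16. The extremes were Msc, a basic helix-loop-helix repressor, at -0.90, and En1, a homeobox factor of the midbrain, at 0.84. For Msc the Cy5 signal was 279 with FGFR inhibitor and 70.5 with GSK inhibitor, and its difference was -1.97 in Cy3 alone and -0.025 in the processed signals. En1 passed 2-fold on those scales, at 1.24 and 1.37, and with an offset of 16, at 1.04. Ihh, a hedgehog ligand with 0.064 in the ratio, passed on both scales in opposite directions, at 1.98 and -1.83. Markers of other cell types had medians of 0.082 for 5 of 13 fibroblast and matrix genes, 0.054 for 8 of 14 blood cell genes and 0.065 for 6 of 12 muscle genes. In the processed signals the blood and muscle medians were -0.13 and -0.042, so their sign depends on the scale. Actn3, 1 of the 6 muscle genes, was the member of these lists that passed, against 1.34% of all genes. The blood cell genes lay between -0.12 for Zap70, a kinase of T cells, and 0.15 for the Fc receptor gene Fcgr3. Ptprc, which marks blood cells, and Myog, which marks muscle cells, were not well above background on both arrays.

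Further lists of cell structure, metabolism and transport were drawn only from names held here, so their coverage says nothing of whole gene families. Of 36 genes of the actin cytoskeleton 35 were compared, with a median of -0.002, and 1 passed, against 1.34% of all genes, which is again Actn3, whereas Actn1, Actn2 and Actn4 were at -0.31, 0.42 and 0.079. The highest was Cfl1, the actin-severing protein cofilin, at 0.53. Of 46 genes of acyl-CoA and fatty acid metabolism 42 were compared, with a median of -0.032, and 0 passed, although Acot3, an acyl-CoA thioesterase at -0.30, was at -2.54 in the processed signals. The extremes were Acss1, a mitochondrial acetyl-CoA synthetase, at -0.82, and Acsl4, which activates long fatty acids, at 0.66. Gpat3, given above at -1.45, is not in that list. Acss1 had Cy3 signals of 1670 in the DMSO control, 5231 after FGFR inhibition, 2417 after MEK inhibition and 2718 after GSK inhibition, so it was above the control on both arrays compared, and further above with FGFR inhibitor.

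All 75 cell cycle genes so listed were compared, and 0 passed, against 1.34% of all genes and 0.675% of named genes, with a median of -0.043. Rgcc, given above at -1.46, is not in that list. The lowest member was Sgo2a (listed as Sgol2), a protector of cohesin at centromeres, at -0.86, and the highest was Anapc1, a subunit of the anaphase-promoting complex, at 0.36. The 6 of 10 housekeeping genes compared had a median of 0.052, between -0.30 for Rpl13a and 0.35 for Ywhaz. Among transporters listed by the symbols of the tables, 1 of 26 solute carriers, Slco4c1, and 1 of 28 ABC transporters, Abcg1, passed 2-fold, against 1.34% of all genes, with medians of 0.009 and -0.14. The median of ABC transporters was -0.29 in Cy3 alone and -0.22 in the processed signals. The list of solute carriers lacks Slc18b1, given above at 1.02, which the tables hold under its clone name. Its highest member was Slc19a2, a thiamine transporter, at 0.52. The highest ABC transporter was Abcb6, a porphyrin transporter, at 0.88.

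**Figure D3:**
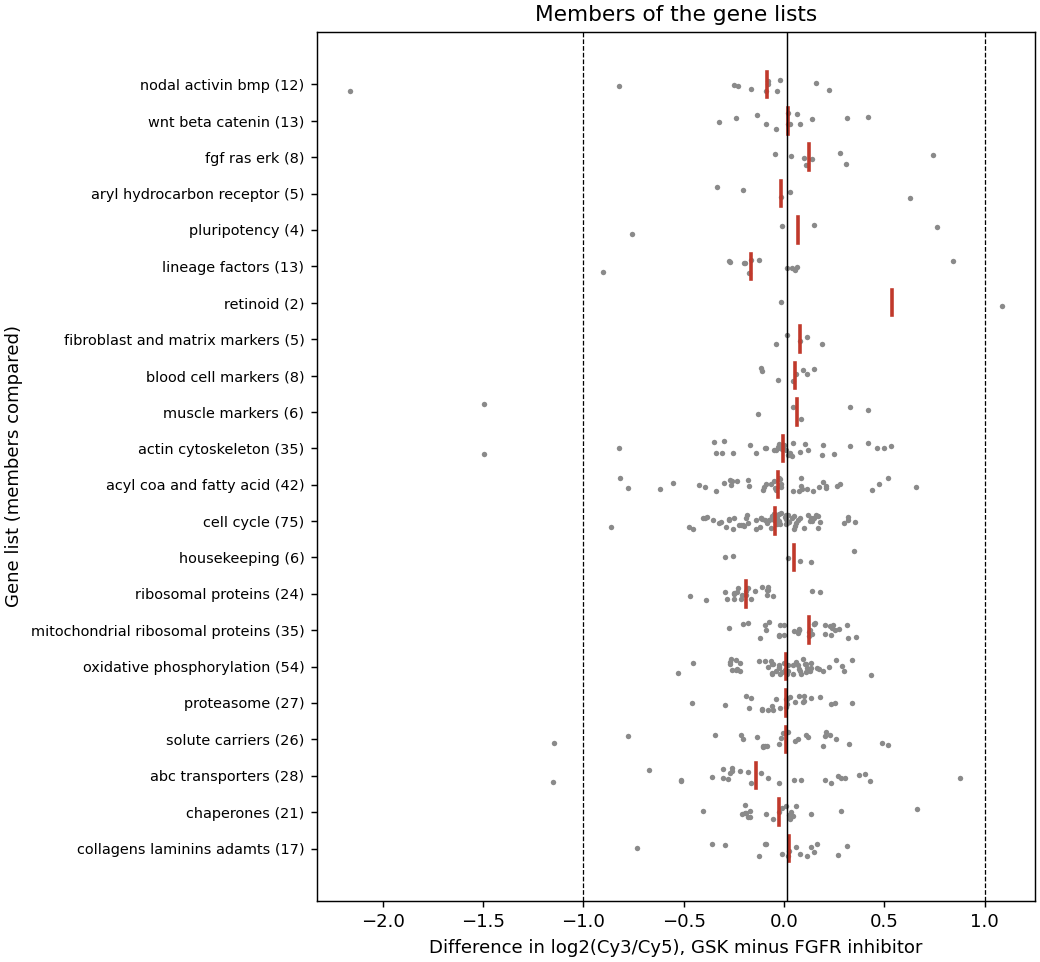
Difference in the log2 ratio of Cy3 to Cy5, GSK minus FGFR inhibitor, for the compared members of 22 gene lists (1 grey point per gene, placed at random heights within its row), with the median of each list in red, the median of all genes as a black line and 2-fold as dashed lines. Most lists lie around the median of 0.018 of all genes, and 5 different genes lie past 2-fold, which are Cfc1, Actn3, Abcg1, Slco4c1 and Rxrg.

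Genes above background on only 1 of the arrays were treated apart, with a lower bound of the fold from Cy3 alone. There were 887 such genes on the FGFR inhibitor array and 403 on the GSK inhibitor array, of which 188 and 79 are named. The bound was at least 2-fold for 71 and 125 of them in the same order, so that this balance ran the other way. The largest bounds among named genes detected with GSK inhibitor alone were at least 10.3-fold for 2510009E07Rik, at least 8.68-fold for Vrtn (listed as 7420416P09Rik), a factor that acts in vertebral number, and at least 3.22-fold for 1700058G18Rik. Vrtn had Cy3 signals of 173 in the DMSO control, 21.9 after FGFR inhibition, 54.4 after MEK inhibition and 204 after GSK inhibition, so the FGFR inhibitor array was the lowest and the MEK inhibitor array also lay below the control. On the FGFR inhibitor array alone, the bounds were at least 5.73-fold for Spaca7 (listed as 1700094C09Rik), a gene of the sperm acrosome, at least 3.76-fold for 4930528J11Rik and at least 3.70-fold for Teddm1a (listed as Teddm1). 4930528J11Rik had Cy3 signals of 111, 109, 108 and 6.26 on the control, FGFR, MEK and GSK inhibitor arrays. Only its signal on the GSK inhibitor array was low, whereas Spaca7 and Teddm1a were high only on the FGFR inhibitor array. These bounds rest on the processed signal near its floor. From background-corrected mean signals with the offset they were 2.01-fold, 1.86-fold, 1.36-fold, 1.65-fold, 1.68-fold and 1.60-fold in the same order. The log2 differences of the ratio after loess were smaller than all of these bounds, at 0.84, 0.86, 0.17, -0.65, -0.64 and -0.35, so the bounds hold only on the scale of each.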

How the data were processed

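RNA of 4 cultures was measured on 4 two-channel arrays of 1 slide, and groups were taken from the sample labels. Files deposited by the authors come from Feature Extraction 9.5.1.1 and hold spot and background intensity, processed intensity after removal of background and dye bias, and the log10 ratio of the latter. The deposited log10 table holds that ratio plus a constant per probe, with medians of 2.26, 2.25, 2.26 and 2.26 for the control, FGFR, MEK and GSK inhibitor arrays; how it was centred is not given in the sources used here, and its differences equal those of the processed ratios (r = 1.00 across genes). Processed signals are not scaled between arrays.

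Mean intensity and median background entered the normexp correction of limma 3.58.1 under R 4.3.3, where the offset was 50 and the fit took all spots. Controls and spots flagged as not uniform were dropped, loess was applied to the ratios of each array, and spots of a probe were averaged. Python 3.11.15 made the counts (numpy 2.4.6, pandas 2.3.3) and the figures (matplotlib 3.10.9). The robust SD was taken in 20 groups by Cy3 level. Errors combine those of both spots in squares. Bounds set the bright array against the higher of the dim spot and the lowest signal well above background on that array, after quantile normalization, and are open to dye bias. Background correction and loess were tested on arrays simulated from a single scan, where the size of differences was checked for bright probes only. For dimmer probes only calls in the wrong direction were checked.

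Named genes carry a symbol, share their direction among the ratio, the processed signals and Cy3 alone, and comprise up to 15 largest differences each way of at least 2-fold, list members past 2-fold, the extremes of each list, and the 3 largest bounds each way. Other genes were named after their values were seen, for comparison within a list. Members and lists were chosen with earlier results of these data known. Older symbols were updated through the RefSeq table for GRCm38.p6 for 1666 genes, and 5145 of 5619 matched an entry. Probes are unmapped in the files, so coordinates are left out. Other settings tried were a smaller offset (16), unsubtracted mean signals, processed signals, the deposited table, Cy3 alone, median centring, Aquantile, other filters and thresholds, and every probe of the array. Shared probe sequence and Cy5 alone were added after seeing the data.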

Additional observations from a re-analysis of the deposited data

How the results depend on the processing

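No paired analysis was possible because the arrays of both treatments are single. Leaving out a replicate was not run for the same lack of arrays, and a block for the slide was not run because there is only 1 slide. Probes sharing an identifier stem were not run, since none do.

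At 2-fold 221 genes differed, 104 higher and 117 lower with GSK inhibitor. There were 686 (369 and 317) on the processed scale, 688 (370 and 318) from deposited values and 787 (388 and 399) in Cy3 alone. By construction, counts were 1001 (459 and 542) at 1.5-fold and 18 (10 and 8) at 4-fold. Every probe of the array gave 178 lower. The 29 named genes became 46 under the offset of 16, 121 on the processed scale, 121 from deposited values, 116 in Cy3 alone, 153 at 1.5-fold and 4 at 4-fold. Genes above background on 1 array with a bound of at least 2-fold numbered 196, against 5 from background-corrected mean signals. The Cy5 channel passed 2-fold for 10 genes, and for 199 in Cy5 alone, a setting chosen after seeing the data. For shifts other than those of threshold the cause was not tested. The remaining settings gave totals within 1.5 times, from 191 with both channels above background to 309 with the offset of 16.

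None of the 29 named genes changed direction with an offset of 16, without background subtraction, on the processed scale, in Cy3 alone or with median centring. A shared direction on the processed scale and in Cy3 alone was also part of the rule for naming, which left out none of them. All of these settings reuse the same scans and are not independent. Aquantile left every ratio as it was and deposited values repeat the processed ones, so they add no check. With the processed signals 28 of the 29 named genes passed 2-fold, and with median centring 22. The offset of 16 made 27 of the 29 differences larger.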

Other observations

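The lists of protein families given here were drawn from the names held. No gene of them passed 2-fold in the ratio after loess, against 1.34% of all genes and 0.675% of named genes. Cytosolic ribosomal protein genes were compared for 24, of which 22 lay at or below the median of all genes, with a median log2 difference of -0.19, from -0.47 for Rps23 to 0.18 for Rpl31. The median of this family was -0.16 in the processed signals, -0.10 in Cy3 alone and -0.13 with median centring. Mitochondrial ribosomal protein genes were compared for 35, of which 23 lay above the median of all genes, with a median of 0.12, from -0.27 for Mrpl54 to 0.36 for Mrps9. In the same settings that median was 0.077, 0.076 and 0.17.

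The 54 genes of oxidative phosphorylation and the 27 of the proteasome had medians of 0.010 and 0.011, near the 0.018 of all genes. The extremes were Uqcrfs1, the iron-sulfur protein of complex III, at -0.53, and Ndufab1, the mitochondrial acyl carrier protein, at 0.43. In the proteasome they were Psmc6 at -0.46 and Psmb3 at 0.34. The 21 chaperone genes had a median of -0.026, between Dnajc7 at -0.40 and Dnajb3 at 0.66, which was 1.12 in Cy3 alone. The 17 of 26 genes of collagens, laminins and ADAMTS proteases that were compared had a median of 0.028, and of -0.047 in the processed signals. The lowest was Lamc1, the γ1 chain of laminin, at -0.73, with Cy3 signals of 1444 in the DMSO control, 1517 after FGFR inhibition, 1399 after MEK inhibition and 779 after GSK inhibition, so that it was low with GSK inhibitor alone. The highest was Adamts2 at 0.31.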
